A study of Mus musculus with 4 samples.

Results

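Collagens and laminins form the scaffold of extracellular matrix. Collagen chains wind into triple helices that assemble into fibrils, sheets or membrane-anchored rods, and each laminin is a cross-shaped trimer of an alpha, a beta and a gamma chain that polymerises into basement membranes together with collagen IV. In the retina, basement membranes lie at the inner limiting membrane, where the end feet of Müller glia rest, around blood vessels and beneath the retinal pigment epithelium, and the neighbouring vitreous is a gel of collagen II fibrils coated with collagen IX. The genes described here were all rows whose symbol named a collagen chain or a laminin chain, which gave 54 genes, 43 for collagens and 11 for laminins, among 23021 rows in each table. All 54 had a valid expression estimate in every library.

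The values came from poly(A) RNA of mouse retina at postnatal day 12, from animals on the slc:ICR background. Dissociated retinal cells were sorted into Cd73-positive cells (Cd73P), mostly rod photoreceptors, and Cd73-negative cells (Cd73N), the remaining retinal cells. Both fractions were taken from normal littermates (WT) and from Ezh2-cKO mice, in which a floxed Ezh2 allele was deleted by Dkk3-Cre, a driver active in retinal progenitor cells from an early embryonic stage. The number of retinas behind a library was not given in the sources used here, and each of the 4 groups was a single library, so no difference below has a replicate check, no test was possible, and errors given are counting errors within a library.

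Levels are given as FPKM, a measure of sequenced fragments that is corrected for the length of the gene's exons and for library depth, so that genes of different length can be compared. Depth recovered from the smallest steps of the FPKM values was 46.1 M, 55.1 M, 45.7 M and 47.2 M fragments in Cd73N WT, Cd73N Ezh2-cKO, Cd73P WT and Cd73P Ezh2-cKO. The gene encoding Cd73, Nt5e, had 0.844 (WT) and 0.609 (Ezh2-cKO) FPKM among Cd73N cells against 125 and 123 FPKM among Cd73P cells. Summed markers of bipolar cells (10 genes) were at 2185 and 1268 FPKM in Cd73N and 187 and 63.9 FPKM in Cd73P, and those of cones (9 genes) at 3808 and 5349 against 256 and 117 FPKM, so the sort was visible in the RNA. Ezh2 itself had 14.1 FPKM in Cd73N WT and 15.9 FPKM in Cd73N Ezh2-cKO, and the Cd73P values were 5.38 and 3.45 FPKM. In Cd73N the Ezh2 level was thus not below that of WT. A gene-level value also counts exons outside the floxed part, so it is no check of that label, and Ezh2-cKO below means the library so labelled.

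Promoter sequences from RefSeq (GRCm38.p6) were matched for 40 of the 54 genes, with 44 promoters in all, and each was placed at a single position on mm9 by exact match. The stretches below lie before RefSeq starts of 4 of the 10 genes that were at least 1.5-fold higher in Cd73N Ezh2-cKO, which differ in CpG content. The Col9a2 stretch also lies within a GENCODE exon of Col9a2 (chr4:120711990-120712391), so it is not upstream of every annotated transcript. The last stretch is the gap that separates a divergent collagen IV pair. Capitals mark GC boxes (GGGCGG, read as CCGCCC on the other strand) and short sites of the type bound by SOX factors (ACAAAG and its variant ACAATG, or TCAAAG and its variant TCAATG, on either strand). Col9a1 has 2 promoters, of which the downstream one is known to give a shorter chain found in eye tissues, and the table holds a single row for both.
Col9a1 upstream promoter, chr1:24184199-24184448, plus strand: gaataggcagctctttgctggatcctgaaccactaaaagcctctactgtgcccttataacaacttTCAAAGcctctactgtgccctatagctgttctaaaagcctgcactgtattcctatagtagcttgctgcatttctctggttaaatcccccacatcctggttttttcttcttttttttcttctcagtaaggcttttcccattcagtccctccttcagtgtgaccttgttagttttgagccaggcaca
Col9a1 downstream promoter, chr1:24201792-24202025, plus strand: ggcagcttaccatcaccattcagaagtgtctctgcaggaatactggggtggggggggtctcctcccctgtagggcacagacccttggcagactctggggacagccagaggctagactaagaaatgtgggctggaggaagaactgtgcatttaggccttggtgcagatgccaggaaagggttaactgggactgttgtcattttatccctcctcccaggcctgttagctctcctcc
Col9a2, chr4:120712139-120712168, plus strand: gaagatCCGCCCctgaccGGGCGGagctgg
Col23a1, chr11:51103172-51103421, plus strand: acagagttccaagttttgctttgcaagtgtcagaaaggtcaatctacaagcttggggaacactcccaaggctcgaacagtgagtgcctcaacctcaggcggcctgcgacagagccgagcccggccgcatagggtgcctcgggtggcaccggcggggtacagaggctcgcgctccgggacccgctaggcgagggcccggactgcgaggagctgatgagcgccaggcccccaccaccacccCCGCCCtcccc
Lama5, chr2:179960565-179960814, minus strand: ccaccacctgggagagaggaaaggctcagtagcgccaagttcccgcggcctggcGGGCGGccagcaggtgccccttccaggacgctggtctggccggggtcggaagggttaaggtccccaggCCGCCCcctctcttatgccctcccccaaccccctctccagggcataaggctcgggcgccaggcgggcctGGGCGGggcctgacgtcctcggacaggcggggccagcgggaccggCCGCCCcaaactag
Gap between Col4a4 and Col4a3, chr1:82583425-82583495, plus strand: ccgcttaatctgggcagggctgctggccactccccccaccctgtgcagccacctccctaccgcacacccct

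These promoters were unlike each other. Both Col9a1 promoters held no CpG and no GC box, whereas the 250 bases before the start of Col23a1 held 18 CpG and 1 GC box, and those of Lama5 held 19 CpG and 4 GC boxes. The 30 bases shown for Col9a2 carried its 2 GC boxes. Across the 44 promoters of the family 24 held a GC box in the 250 bases before the start, 54.5% against 32.7% of all 32851 promoters, and the median was 8.5 CpG against 6. A site of the SOX type was found in 13, or 29.5%, against 39.4% of all promoters, and a TATA box (TATAAA, gene strand only) in 5, or 11.4%, against 7.59%. Among the 10 promoters that belonged to 8 of the genes at least 1.5-fold higher in Cd73N Ezh2-cKO, 6 held a GC box, 2 a SOX-type site and 0 a TATA box, and among the other 34 these numbers were 18, 11 and 5. Col2a1, Col4a3, Col9a3, Col1a1, Col5a2, Col12a1, Col14a1, Col22a1, Lama1, Lama3, Lama4, Lamc1 and Lamc3 were among the genes with no entry.

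The summed FPKM of collagens and of laminins was higher in the Cd73-negative fraction. FPKM is relative to each library, so the amount of transcript in each fraction is not known. Collagen FPKM summed to 210.6 in Cd73N WT and 462 in Cd73N Ezh2-cKO, against 27.0 and 34.3 in Cd73P WT and Ezh2-cKO. The laminin sums in the same order were 26.7, 33.7, 3.76 and 4.37 FPKM. In such bulk samples fewer cells of a type and less RNA per cell cannot be told apart. The collagen sum was thus 2.19-fold higher with the Ezh2-cKO label in Cd73N, and 1.27-fold higher in Cd73P. The laminin sum was 1.26-fold and 1.16-fold higher, but without Lamc1 its ratio in Cd73P was 0.845, so the direction there rests on that gene. A few genes carried the sums, with the 3 highest collagens giving 57.8% of collagen FPKM in Cd73N WT and 64.0% in Cd73N Ezh2-cKO. Of the 54 genes, 25 stayed under 1 FPKM in every library.

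**Figure D1:**
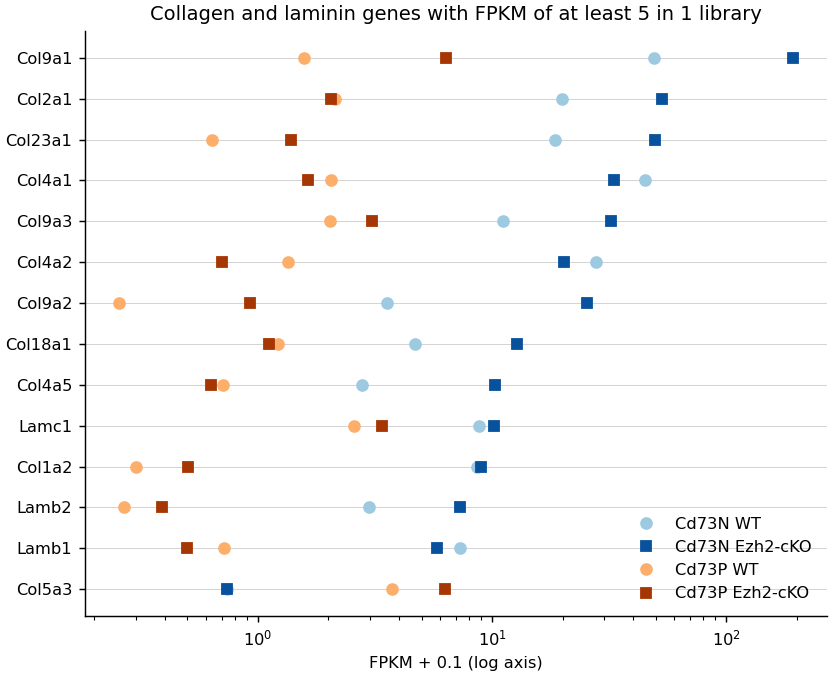
FPKM plus 0.1 (log axis) of the 14 collagen and laminin genes that reached 5 FPKM in at least 1 library; circles stand for WT, squares for Ezh2-cKO, blue for Cd73N and orange for Cd73P, with 1 library per point. Col5a3, at the bottom, is the gene whose Cd73P values (3.62 and 6.18 FPKM) lay above its Cd73N values (0.639 and 0.635 FPKM); its Cd73N points overlie each other, and all other genes shown were higher in Cd73N.

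In the Cd73-negative fraction, 10 of the 54 genes were at least 1.5-fold higher in the library labelled Ezh2-cKO than in WT on the log2(FPKM + 1) scale, which is the scale of every log2 ratio below. None was at least 1.5-fold lower. The 10 were Col2a1, Col4a5, Col4a6, Col9a1, Col9a2, Col9a3, Col18a1, Col23a1, Lama5 and Lamb2. They made up 18.5% of the family, beside 7.18% of all 21704 genes compared that were higher and 1.71% that were lower. The median log2 ratio of the family was 0.12, beside 0 for all genes. Among the 19 family genes with a mean of at least 1 FPKM over the 4 libraries 8 were higher and 0 lower, beside 10% and 2.79% of all genes past that mean. With 1 library per group these counts describe the libraries and have no test.

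Collagen IX belongs to the FACIT collagens, which do not form fibrils but sit on their surface, and its 3 chains alpha1, alpha2 and alpha3 assemble in a trimer. Col9a1 (chr1:24184449-24259577, plus strand) had 49.0 FPKM in Cd73N WT and 193 FPKM in Cd73N Ezh2-cKO, with 1.48 and 6.23 FPKM in the matching Cd73P samples. Its log2 ratio between genotypes was 1.95 in Cd73N (counting SE 0.02) and 1.55 in Cd73P (0.07), and it was the highest collagen in both Cd73N libraries and in Cd73P Ezh2-cKO. Col9a2, for the alpha2 chain, had 3.45 and 25.3 FPKM in Cd73N and 0.154 and 0.828 FPKM in Cd73P. Its log2 ratio of 2.56 in Cd73N (counting SE 0.06) was the highest of the family on this scale. Col9a3, for the alpha3 chain, had 11.0 and 32.0 FPKM in Cd73N and 1.94 and 2.97 FPKM in Cd73P, which gave log2 ratios of 1.46 and 0.43. All 3 chains were therefore higher with the Ezh2-cKO label in Cd73N, and Col9a1 and Col9a2 passed 1.5-fold in Cd73P as well. The Cd73P level of Col9a1 was 3.01% (WT) and 3.24% (Ezh2-cKO) of its Cd73N level, and that of Col9a2 was 4.47% and 3.27%. Whether RNA of Cd73N cells carried into Cd73P gave these values was not tested. The values of Col9a1 in both Cd73N libraries, and those of Col9a2 and Col23a1 in Cd73N Ezh2-cKO, lay above their own deposited upper bounds. This was common among all genes, in 3216 and 3600 valid rows of Cd73N WT and Ezh2-cKO and 2673 and 2715 of Cd73P.

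Col2a1, which encodes the fibril collagen that collagen IX decorates, had 19.8 FPKM in Cd73N WT and 53.3 FPKM in Cd73N Ezh2-cKO. In Cd73P it had 2.03 and 1.96 FPKM, so the log2 ratio was 1.38 in Cd73N and -0.03 in Cd73P (counting SE 0.02 and 0.06). Of the 11 fibril-forming collagen genes it was the single one past 1.5-fold in Cd73N on this scale. The minor fibril chains Col11a1, Col11a2, Col5a2 and Col5a3 had log2 ratios of 0.07, 0.06, 0.16 and -0.003 there. Col5a1, another minor chain, had a log2 ratio of 0.53, short of the limit, and was 2.11-fold higher in FPKM. Col1a2 had 8.53 and 8.87 FPKM in Cd73N and 0.203 and 0.405 FPKM in Cd73P, while its partner Col1a1 was listed at 0.0384 and 0.137 FPKM in Cd73N and at 0 in both Cd73P libraries. Type I collagen usually holds a pair of alpha1 chains and a single alpha2 chain, and here the alpha2 transcript exceeded the alpha1 transcript 222-fold in Cd73N WT (95% counting interval 105 to 470.1) and 65.0-fold in Cd73N Ezh2-cKO (45.1 to 93.6). Col3a1 had 4.60 and 3.97 FPKM in Cd73N and at most 0.0488 FPKM in Cd73P.

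The membrane-spanning Col23a1 and the basement membrane multiplexin Col18a1, the source of endostatin, were the other high collagens of this group. Col23a1 had 18.5 and 49.5 FPKM in Cd73N and 0.538 and 1.28 FPKM in Cd73P, with log2 ratios of 1.37 and 0.57, the latter just under the 1.5-fold limit of 0.58. Col18a1 had 4.60 and 12.6 FPKM in Cd73N and 1.12 and 1.02 FPKM in Cd73P, with log2 ratios of 1.28 and -0.07. Col23a1 was thus higher with the Ezh2-cKO label in both fractions and Col18a1 in Cd73N, with a Cd73P value near 0 on the log2 scale. The Cd73P level of Col23a1 was 2.91% (WT) and 2.59% (Ezh2-cKO) of its Cd73N level. The part of RNA carried over from Cd73N cells was not tested. Col17a1, another membrane-spanning collagen, known from hemidesmosomes, differed in the other direction. It had 4.59 and 3.49 FPKM in Cd73N and 3.09 and 0.701 FPKM in Cd73P, so that its log2 ratio of -1.26 in Cd73P was the lowest of the family.

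The collagen IV genes had ratios in both directions. Its 6 chains form the networks of basement membranes, as trimers of alpha1 and alpha2 chains in most tissues, of alpha3, alpha4 and alpha5 chains in some, and of alpha5 and alpha6 chains in others. The genes lie head to head in 3 pairs. Col4a1 and Col4a2 lie 2 bases apart on chromosome 8 by the deposited positions, while the RefSeq start of Col4a2 lies further upstream, inside Col4a1. They were the main chains, with Col4a1 at 44.9 and 33.0 FPKM in Cd73N and 1.96 and 1.53 FPKM in Cd73P. Col4a2 had 27.7 and 20.2 FPKM in Cd73N and 1.24 and 0.602 FPKM in Cd73P. Both were therefore lower with the Ezh2-cKO label in Cd73N, by 1.36-fold and 1.37-fold, short of the 1.5-fold limit, and the ratio between them was 1.62 and 1.63 in the Cd73N libraries (95% counting intervals 1.58 to 1.67 and 1.59 to 1.68). In Cd73P that ratio was 1.58 in WT and 2.54 in Ezh2-cKO (1.39 to 1.81 and 2.14 to 3.02). On the X chromosome, with starts 1342 bases apart, Col4a5 had 2.68 and 10.2 FPKM in Cd73N and 0.610 and 0.529 FPKM in Cd73P. Its neighbour Col4a6 had 1.19 and 2.57 FPKM in Cd73N and 0.101 and 0.140 FPKM in Cd73P. The log2 ratios in Cd73N were 1.60 for Col4a5 and 0.71 for Col4a6, so both were higher but by unequal amounts, and the ratio of Col4a5 to Col4a6 was 2.26 in WT and 3.98 in Ezh2-cKO. In Cd73P it was 6.01 in WT and 3.77 in Ezh2-cKO, with overlapping counting intervals (4.08 to 8.86 and 2.69 to 5.28). The ratio of Col4a1 to Col4a5 was 16.7 in Cd73N WT and 3.24 in Cd73N Ezh2-cKO (95% counting interval 3.12 to 3.36), and 3.21 and 2.89 in Cd73P.

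The remaining pair, Col4a3 and Col4a4, is divided by the 71 bases printed above, and it had its higher values in the Cd73-positive fraction. Col4a3 had 0.152 and 0.144 FPKM in Cd73N and 0.477 and 1.46 FPKM in Cd73P. Col4a4 had 0.0541 and 0.124 FPKM in Cd73N and 0.373 and 0.894 FPKM in Cd73P. With the Ezh2-cKO label the pair was higher in Cd73P by 3.07-fold and 2.40-fold in FPKM. On the log2(FPKM + 1) scale Col4a3, at 0.74, passed the limit and Col4a4, at 0.46, did not.

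Among the laminins the ratios differed between chains of the same kind. Lamc1, which encodes the gamma1 chain shared by most laminins, was the highest laminin in every library, with 8.73 and 10.1 FPKM in Cd73N and 2.47 and 3.28 FPKM in Cd73P. Lamb1, for the beta1 chain, had 7.17 and 5.71 FPKM in Cd73N and 0.617 and 0.400 FPKM in Cd73P. Lamb2, for the beta2 chain, which is known from the inner limiting membrane and from synapses, had 2.88 and 7.18 FPKM in Cd73N and 0.169 and 0.291 FPKM in Cd73P. Lamb2 thus exceeded Lamb1 in Cd73N Ezh2-cKO but not in WT, with a ratio of Lamb1 to Lamb2 of 2.49 in WT (95% counting interval 2.28 to 2.71) and 0.796 in Ezh2-cKO (0.748 to 0.848). Alpha chains also differed. Lama4, an alpha chain of vessel walls, had 4.72 and 3.45 FPKM in Cd73N, and Lama5, an alpha chain of many basement membranes, had 0.506 and 2.40 FPKM. Lama5 had a log2 ratio of 1.17 and Lama4 of -0.36, and the ratio of Lama4 to Lama5 was 9.33 in WT and 1.44 in Ezh2-cKO. In Cd73P Lamb1 over Lamb2 was 3.66 and 1.37, and Lama4 over Lama5 was 1.49 and 0.942. Lama1 had 0.475 and 1.12 FPKM and Lama2 had 1.26 and 2.20 FPKM, with log2 ratios of 0.52 and 0.50, short of the limit. Lama3 and Lamb3 were under 0.1 FPKM in every library.

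**Figure D2:**
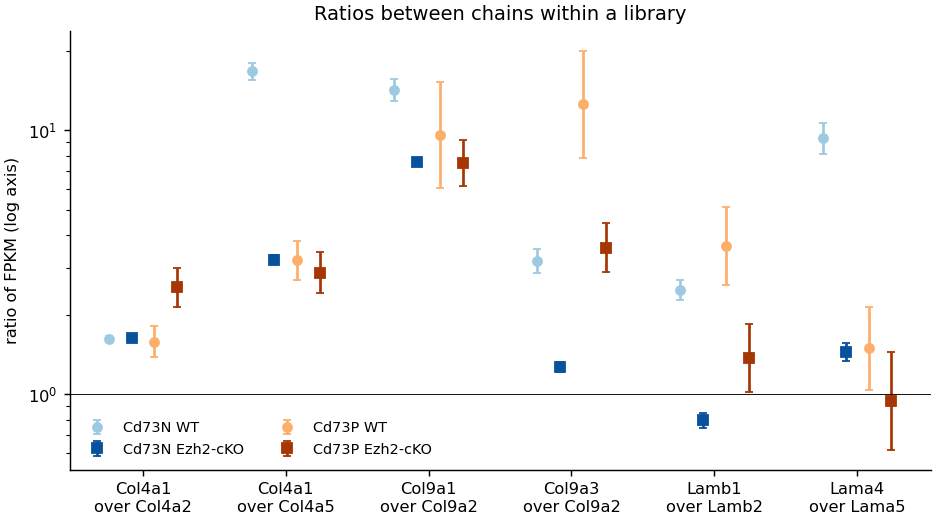
Ratio of the FPKM of chains of the same family within each library (log axis), with 95% counting intervals; blue marks Cd73N, orange Cd73P, circles WT and squares Ezh2-cKO. Col4a1 over Col4a2 was 1.62 and 1.63 in the Cd73N libraries and 1.58 and 2.54 in the Cd73P libraries, and in Cd73N Lamb1 over Lamb2 was 2.49 in WT and 0.796 in Ezh2-cKO.

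In the Cd73-positive fraction, 5 of the 54 genes were at least 1.5-fold higher with the Ezh2-cKO label and 1 was lower, beside 2.26% of all genes higher and 2.38% lower. The higher genes were Col4a3, Col5a3, Col9a1, Col9a2 and Col19a1, and the lower gene was Col17a1. The family median was 0.00. Among the 19 genes with a mean of at least 1 FPKM 3 were higher and 1 lower, beside 3.7% and 4.1% of all genes past that mean. Col5a3, for a minor fibril collagen chain, had 3.62 and 6.18 FPKM in Cd73P and 0.639 and 0.635 FPKM in Cd73N, and was the highest collagen of Cd73P WT. Col19a1, a FACIT collagen whose 3′ end lies 4944 bases from that of Col9a1 on the opposite strand, had 0.411 and 1.24 FPKM in Cd73P and 0.0856 and 0.175 FPKM in Cd73N. The network-forming Col8a1, known from vessel walls and Bruch's membrane beneath the pigment epithelium, had 2.61 and 1.54 FPKM in Cd73P and 0.722 and 0.663 FPKM in Cd73N, and Col8a2, its partner chain, had 0.839 and 0.377 FPKM in Cd73P. Their log2 ratios in Cd73P were -0.51 and -0.42, short of the limit.

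**Figure D3:**
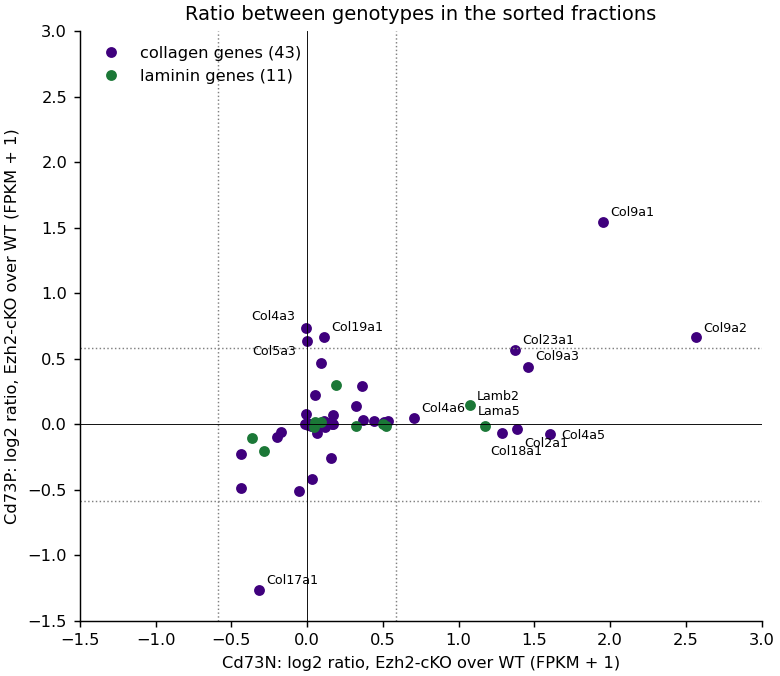
Log2 ratio of Ezh2-cKO over WT on the log2(FPKM + 1) scale in Cd73N (horizontal) and Cd73P (vertical) for 43 collagen and 11 laminin genes; dotted lines mark 1.5-fold and named genes passed it in at least 1 fraction. Col9a1 and Col9a2 passed 1.5-fold in both fractions, Col17a1 is the point below the lower line, and Col2a1, Col18a1, Col4a5 and Lama5 lay near 0 in Cd73P.

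Between the fractions, 20 of the 54 genes were at least 1.5-fold higher in Cd73N than in Cd73P in WT, 37.0% of the family beside 27.9% of all genes, and 4 were lower, beside 9.07%. In Ezh2-cKO 27 were higher, 50% beside 29.1%, and 6 were lower, beside 8.4%. Among the 19 genes with a mean of at least 1 FPKM, 15 were higher and 3 lower in WT, beside 44.7% and 15.6% of all genes past that mean, and 16 were higher and 3 lower in Ezh2-cKO, beside 42.9% and 14.2%. The family medians were 0.35 in WT and 0.60 in Ezh2-cKO, beside 0.05 and 0.09 for all genes. These comparisons share libraries with those between genotypes. Among the genes that reached 5 FPKM, the Cd73P level as a share of the Cd73N level in WT was lowest for Col1a2, at 2.38%, and was 3.01% for Col9a1 and 4.36% for Col4a1. It was larger for Col2a1 (10.2%), Col9a3 (17.6%), Col4a5 (22.7%), Col18a1 (24.3%) and Lamc1 (28.3%). In Ezh2-cKO these shares were 4.56%, 3.24%, 4.63%, 3.68%, 9.28%, 5.19%, 8.06% and 32.5%, in the same order. The genes on the Cd73P side in both genotypes past 1.5-fold were Col5a3, Col8a1 and Col20a1, of which Col20a1, a FACIT collagen, had 0.585 and 0.783 FPKM in Cd73N and 1.98 and 1.99 FPKM in Cd73P.

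**Figure D4:**
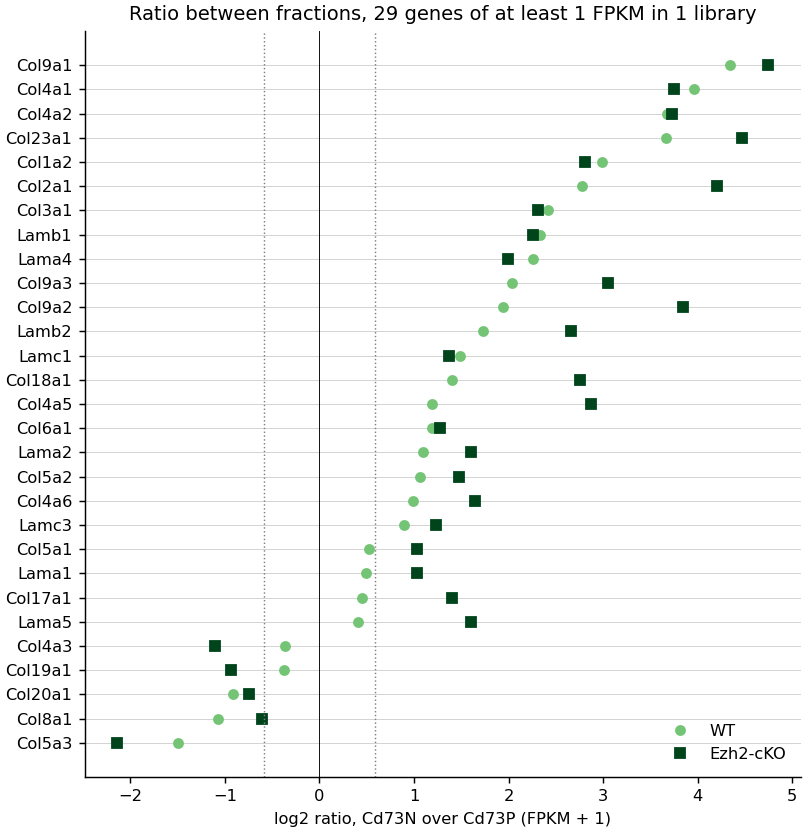
Log2 ratio of Cd73N over Cd73P on the log2(FPKM + 1) scale in WT (circles) and Ezh2-cKO (squares) for the 29 genes that reached 1 FPKM in at least 1 library, ordered by the WT ratio; dotted lines mark 1.5-fold. Col9a1 (4.34 and 4.74) is at the top and Col5a3 (-2.14 in Ezh2-cKO) at the bottom.

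Markers of the cell types that make matrix were measured beside these genes. For the counts between genotypes below, 7.18% of all genes were at least 1.5-fold higher and 1.71% lower in Cd73N, and 2.26% and 2.38% in Cd73P. The Müller glia list (14 genes, among them Rlbp1, Glul, Slc1a3 and Aqp4) summed to 1548 FPKM in Cd73N WT and 6685 FPKM in Cd73N Ezh2-cKO, and 14 of 14 were at least 1.5-fold higher, with a median log2 ratio of 2.09. In Cd73P the list summed to 312.3 and 513.0 FPKM and 10 of 14 were higher, and none of its genes was at 0 in any library. Single markers in Cd73N had log2 ratios from 1.01 (Dbi) to 3.16 (Aqp4). The authors had already listed Apoe, Dkk3, Rlbp1, Dbi and Slc1a3 among the top genes higher in Cd73N Ezh2-cKO. The count for this list is therefore not independent of these data. The part of Müller glial RNA in the values of Col2a1, Col9a1, Col9a2, Col9a3, Col18a1, Col23a1, Col4a5, Lama5 and Lamb2 was not tested. The pericyte and smooth muscle list (12 genes) summed to 305 and 335 FPKM in Cd73N and to 10.2 and 5.67 FPKM in Cd73P, with 0 genes past 1.5-fold in either direction in Cd73N and a median of 0.01. Col4a1, Col4a2, Lama4 and Lamb1 had log2 ratios of -0.43, -0.43, -0.36 and -0.28 there. In Cd73P 2 of the 12 were lower, where Col4a1, Col4a2, Lama4 and Lamb1 had log2 ratios of -0.23, -0.48, -0.10 and -0.21. The part of pericyte RNA in the values of these 4 genes was not tested. The vascular endothelial list (14 genes) summed to 85.5 and 150.3 FPKM in Cd73N and to 14.5 and 11.1 FPKM in Cd73P, and its median in Cd73N was 0.05, with Kdr and Flt1 higher and Esam lower. The higher Cd73N sum rests on Kdr (22.6 and 86.2 FPKM) and Flt1 (2.86 and 16.2 FPKM), while Esam had 23.9 and 13.3 FPKM. The fibroblast list (11 genes) summed to 13.3 and 15.4 FPKM in Cd73N and 1.46 and 1.68 FPKM in Cd73P, with Dpt at 0 in every library and Dcn at 0.0678 and 0.352 FPKM in Cd73N. The pigment epithelium list (10 genes measured) summed to 62.7 and 50.6 FPKM in Cd73P and to 11.3 and 11.4 FPKM in Cd73N, and 3 of its genes were lower with the Ezh2-cKO label in Cd73P, the fraction in which Col8a1 and Col17a1 had lower values in that library. Col17a1, unlike the sum of that list, was higher in Cd73N than in Cd73P in both genotypes. Of the bipolar markers 8 of 10, and of the cone markers 7 of 9, were also at least 1.5-fold lower with that label in Cd73P. The part of these lists in the Col8a1 and Col17a1 values was not tested.

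**Figure D5:**
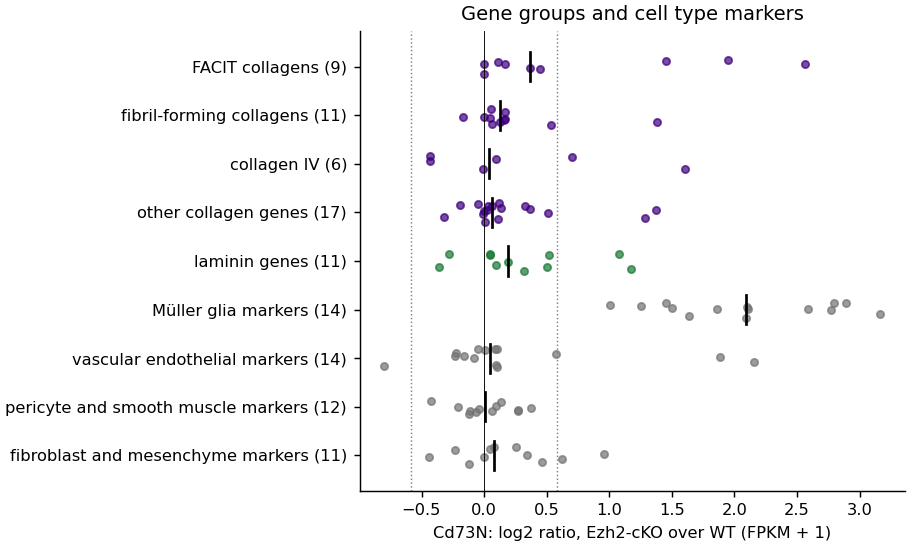
Log2 ratio of Ezh2-cKO over WT in Cd73N on the log2(FPKM + 1) scale for groups of collagen genes (purple), the laminin genes (green) and lists of cell type markers (grey); each point is a gene, black bars are medians, dotted lines mark 1.5-fold and vertical scatter is only for display. The Müller glia markers have a median of 2.09 and the pericyte and smooth muscle markers of 0.01. Part of the Müller glia list was already reported as higher in this same Cd73N Ezh2-cKO library.

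The partners of these proteins were read from lists of related genes. Among 15 basement membrane partners 4 were at least 1.5-fold higher with the Ezh2-cKO label in Cd73N and 0 lower, with a median of 0.23. Netrin-4 (Ntn4), which binds laminin, had 1.87 and 11.2 FPKM and Sparc, which binds collagen, had 170.1 and 301.6 FPKM in Cd73N, whereas agrin (Agrn) and fibronectin (Fn1) had log2 ratios of 0.23 and -0.12. Among 29 measured enzymes and chaperones of collagen processing 6 were higher and 0 lower, with a median of 0.20. None of the 3 most abundant passed the limit, with Ppib, a prolyl isomerase, at 313.3 and 225 FPKM, P4hb, the beta subunit of prolyl 4-hydroxylase, at 147.9 and 104.3 FPKM, and the collagen chaperone Serpinh1 at 48.2 and 56.7 FPKM, while Leprel2 had a log2 ratio of 0.46 and Glt25d1, a collagen galactosyltransferase, of -0.33. In Cd73P these lists held 0 and 1 higher and 1 and 0 lower genes, respectively.

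Among 18 matrix receptors 4 were higher and 0 lower in Cd73N, with a median of 0.45. The hyaluronan receptor Cd44 had a log2 ratio of 2.14, the collagen receptor kinase Ddr1 had 51.0 and 125.3 FPKM in Cd73N, and Sgcb and Dag1, of the dystrophin-linked complex that binds laminin, had log2 ratios of 0.61 each. Among 13 proteases and inhibitors 5 were higher and 0 lower, with a median of 0.40. Timp3, an inhibitor held in the matrix, had 9.40 and 43.7 FPKM in Cd73N, the protease Adamts1 had 3.32 and 17.2 FPKM, the collagenase Mmp14 had 10.5 and 33.0 FPKM, and Timp2 had a log2 ratio of 0.55. In Cd73P the receptor list and the protease list held 0 higher genes and 1 lower gene each. Over all genes 7.18% were higher and 1.71% lower in Cd73N, and 2.26% and 2.38% in Cd73P. The part of the Müller glia marker difference in these lists was not tested.

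The other collagens were low. The 25 genes under 1 FPKM in every library had log2 ratios between genotypes of -0.20 (Col6a3) to 0.51 (Col6a2) in Cd73N and -0.42 (Col8a2) to 0.46 (Col4a4) in Cd73P, so none passed the limit. At such levels the limit is hard to reach on the log2(FPKM + 1) scale, whatever the fold in FPKM. The 25 included all collagen VI genes but Col6a1, which had 1.44 and 1.64 FPKM in Cd73N and 0.0693 and 0.0893 FPKM in Cd73P. Col5a1 had 0.674 and 1.42 FPKM in Cd73N, Col5a2 had 1.59 and 1.89 FPKM, and Lamc3 had 0.908 and 1.39 FPKM, all short of 1.5-fold on the log2(FPKM + 1) scale. For some low genes a fold in FPKM rests on few fragments, as for Col24a1, with about 5 and 53 fragments in Cd73N WT and Ezh2-cKO, and Col25a1, with about 1 and 51. Others had more, as Col5a1 with about 255 and 642 (2.11-fold in FPKM), Col7a1 with 153 and 379 (2.07-fold) and Col16a1 with 64 and 203 (2.67-fold). In the other direction, Col6a3 had about 138 and 82 fragments (0.499-fold). Col4a3 had about 58 and 66 fragments in Cd73N. Of the 54 genes, 13 neighbouring pairs lay within 1 Mb, 4 of them head to head. Col5a2 lies 24624 bases from Col3a1, tail to tail, and the values of both in Cd73N are given above.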

How the data were processed

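The authors aligned 36-base single-end reads of poly(A) RNA to mm9 with TopHat 2.0.8b (coverage search, at most 50 hits for a read), and Cufflinks 2.1.1 gave the FPKM values, per the methods and the submitters' processing notes. The deposited tables held FPKM, its lower and upper bounds and a status. The library protocol names no strand marking. Rows of a symbol were summed (251 symbols) and 728 small RNA symbols were left out, which left 21830 symbols. Values with OK status in both libraries were used, which left between 21702 and 21705 genes for a comparison. Listed starts were increased by 1, after which 39 of the 54 genes started at the GENCODE position. Fragments behind each value were estimated from the recovered depth and the longest transcript. Between 67.8% and 70.7% of low values came out whole within 0.03 of a fragment. Ratios used log2(FPKM + 1) and a limit of 1.5-fold, and the counting code was checked on simulated data. Intervals and SEs cover counting error only. Members, groups and lists were chosen with earlier results of these data known. Genes reaching 5 FPKM in a library were given with 4 values, lower genes where past 1.5-fold between genotypes at 1 FPKM or more, neighbours as pairs, and from each list up to 4 genes of at least 10 FPKM with the largest ratio in Cd73N. Col1a1, Col8a1, Col8a2, Col20a1, Lama1, Lama2, Lama3, Lama4, Lamb3, Lamc3, Col5a1, Col6a2, Col6a3, Col7a1, Col11a1, Col11a2, Col16a1, Col24a1, Col25a1, Serpinh1 and marker genes were added after their values were seen. Alternatives were the pseudocount, limit, scaling, filter, status and the deposited bounds. Python 3.11.15, numpy 2.4.6 and pandas 2.3.3 were used.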

Additional observations from a re-analysis of the deposited data

Results flagged for a closer look

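For 6 genes the ratio between genotypes passed 1.5-fold in 1 fraction and had the opposite sign in the other. The difference between fractions was not tested, since each group is a single library. The log2 ratio in Cd73P minus that in Cd73N was -1.42 for Col2a1, -1.35 for Col18a1, -1.68 for Col4a5 and -1.19 for Lama5, all higher with the Ezh2-cKO label in Cd73N. It was 0.75 for Col4a3 and 0.64 for Col5a3, both higher with that label in Cd73P. In each case the value of opposite sign was close to 0, at -0.03 for Col2a1, -0.07 for Col18a1 and Col4a5, and -0.01 for Lama5 in Cd73P, and at -0.01 for Col4a3 and -0.003 for Col5a3 in Cd73N. These signs depend on the scaling between libraries. Under median scaling 4 of the 6 no longer had opposite signs (Col2a1, Col4a3, Col5a3 and Lama5), and under scaling by the FPKM sum 2 did not (Col4a3 and Col5a3).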

How the results depend on the processing

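No paired analysis was possible because each group holds 1 library. With a pseudocount of 0.1 in place of 1, the genes past 1.5-fold became 22 higher and 1 lower between genotypes in Cd73N, 11 and 6 in Cd73P, and 32 and 7 between fractions in WT, and the medians became 0.38 in Cd73N, 1.34 between fractions in WT and 2.19 in Ezh2-cKO. With a pseudocount of 5 the Cd73N median was 0.0304, Cd73P held 1 higher and 0 lower, 1 gene was lower between fractions in WT, and 15 were higher and 1 lower in Ezh2-cKO, with a median of 0.14. A 2-fold limit left 1 higher in Cd73P and 2 lower between fractions in each genotype. With a mean of at least 1 FPKM, Cd73P held 3 higher with a median of -0.0348, and the fractions differed by a median of 2.03 in WT and 2.76 in Ezh2-cKO, with 16 higher and 3 lower in Ezh2-cKO. Fewer genes enter that last setting. Scaling by the median ratio of expressed genes shifted ratios by 0.05, 0.04, -0.30 and -0.24, and scaling by the FPKM sum by 0.15, -0.06, -0.43 and -0.22, in the order Cd73N and Cd73P between genotypes, then fractions in WT and Ezh2-cKO. Median scaling gave a median of 0.0426 in Cd73P and 7 lower between fractions in WT. The log2 ratios of summed collagens in that order, 1.13, 0.35, 2.97 and 3.75, became 1.19, 2.67 and 3.51 under median scaling (Cd73P moved little), 1.28, 0.29, 2.54 and 3.53 under sum scaling, and 0.74, 0.14, 2.67 and 3.26 without Col9a1. Those of laminins, 0.34, 0.22, 2.83 and 2.95, became 0.39, 2.53 and 2.71 (median), 0.49, 2.40 and 2.73 (sum), and 0.39, -0.24, 3.81 and 4.45 without Lamc1, so the Cd73P direction rests on Lamc1. The cause of these moves was not tested. For single genes, 112 ratios were recomputed, of which 56 moved beyond their counting error. No ratio past 1.5-fold changed sign, and 1 ratio near 0 did, that of Col2a1 in Cd73P, from -0.0348 to 0.004 under median scaling. Keeping rows of every status, or asking that bounds not overlap, left the counts of genes past 1.5-fold as they were. The bounds are a limited check, since many values lay above their own upper bound. Depth limits genes under 1 FPKM, and without replicates no spread between animals or sorts is known.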

Other observations

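Markers of other cell types also differed between the libraries. The astrocyte list (4 genes) summed to 6.88 and 21.5 FPKM in Cd73N WT and Ezh2-cKO, with 3 genes at least 1.5-fold higher, and the microglia list (11 genes) to 121 and 182 FPKM with 5 higher. The bipolar list (10 genes) had 6 lower in Cd73N and 8 lower in Cd73P, and the cone list (9 genes) had 3 higher in Cd73N and 7 lower in Cd73P. Of 12 rod markers 6 were lower in Cd73N, and of 11 compared in Cd73P 2 were higher. The amacrine list (10 genes measured) summed to 125 and 141 FPKM in Cd73N, the ganglion cell list (10 genes) to 19.0 and 45.7 FPKM and the horizontal cell list (5 genes) to 1.27 and 1.93 FPKM. Of the ganglion cell list 2 genes were higher and 1 lower in Cd73N, with a median log2 ratio of 0.26. Most of the rise in its sum was Thy1, at 6.52 and 30.3 FPKM. The amacrine list had 2 higher and 0 lower there, and the horizontal cell list 0 in either direction. The lens list (11 genes) summed to 4.91 and 4.80 FPKM in Cd73N and to 0.355 and 0.463 FPKM in Cd73P. Beside these counts, 7.18% of all genes were higher and 1.71% lower in Cd73N, and 2.26% and 2.38% in Cd73P. The part of these cell types in the collagen and laminin values was not tested.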
